A study of Homo sapiens with 12 samples.

Results

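Epithelial cells are held together by desmosomes, adherens junctions, tight junctions and gap junctions, and 42 genes for the proteins of these junctions, with a pair of splicing regulators of epithelial cells, were followed in BEAS-2B cells. The genes were chosen by name, with earlier results of these data known, so their counts beside all genes are descriptive. They were found in the count table by gene identifier, and all 42 were present among its 28395 identifiers. All 42 were also among the 13469 genes that passed the filter on low counts and were tested. CDH11 passed through the libraries given TGF-β1, and TJP3 through those of control and 1 of dexamethasone. CLDN4 passed through those of control and 2 of TGF-β1 alone. A difference for each of these genes was thus fixed by the filter in part.

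BEAS-2B is an established cell line derived from human bronchial epithelium and made immortal with viral genes. RNA was sequenced from 12 libraries in 4 groups of 3. The control group was left untreated after 24 h in medium without serum or steroid, and 24 h without serum applied to all 4 groups. The TGF-β1 group received 40 pM TGF-β1 for 24 h, the dexamethasone group 30 nM dexamethasone for 4 h, and the group with both agents received TGF-β1 for 24 h and then dexamethasone for a further 4 h. TGF-β1 is listed at 24 h for both groups that received it. Any longer TGF-β1 exposure during the 4 h of dexamethasone cannot be told apart from dexamethasone in comparisons that involve both groups. TGF-β1 can drive epithelial cells towards a mesenchymal state, and dexamethasone is a synthetic glucocorticoid. The 3 libraries of a group are labelled as biological triplicates, without saying whether they came from separate days. The growth protocol names A549 cells, whereas the source, cell type and treatment fields name BEAS-2B.

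In a desmosome the cadherins of neighbouring cells (desmogleins and desmocollins) grip each other, and plakoglobin, plakophilins and desmoplakin tie them to keratin filaments inside. In a tight junction, claudins, occludin and related membrane proteins seal the gap between cells, and zonula occludens proteins and cingulins tie them to actin. Polarity proteins place these junctions near the apical surface, and connexins form the channels of gap junctions. Repressors of the Snail and ZEB families, which TGF-β1 induces in many epithelial cells, bind an E-box with the letters CAGGTG in the promoters of several junction genes.

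The E-box letters are shown first because they are the sequence feature that the members can be compared on. RefSeq promoter windows on GRCh38.p14, running from 250 bases before to 50 bases after a transcript start, were matched for 29 of the 42 members, with 40 windows in all. Within 250 bases before a start, 12 of the 29 members (41.4%) held CAGGTG on either strand, against 20.6% of 27305 genes. The E-box nearest to the start in each of these 12 members is printed 5′ to 3′ on the strand of the gene, with 12 bases on either side and the E-box in capitals (CACCTG is the same site on the other strand).
CDH4, chr20:61499393-61499422, plus strand: gggactggggtgCAGGTGtgcctggttcag
CLDN7, chr17:7262470-7262499, minus strand: tcaggtgcgcccCACCTGtccgcccgcacc
OCLN, chr5:69492502-69492531, plus strand: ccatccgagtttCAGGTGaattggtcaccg
PATJ, chr1:61742438-61742467, plus strand: gggagggcctgcCAGGTGaggcgcggtcac
TJP3, chr19:3721718-3721747, plus strand: gaggaagaggggCAGGTGcagccgggagct
CRB3, chr19:6464199-6464228, plus strand: agtgcgctctccCAGGTGagtgactaaact
DSG2, chr18:31498049-31498078, plus strand: tcgcggcggccaCACCTGgagccgcgcctt
PCDH1, chr5:141869691-141869720, minus strand: cccagggagcgtCAGGTGggtgagggtgtt
DSC2, chr18:31102560-31102589, minus strand: tcaactttctgtCAGGTGggcctcaggcag
DSP, chr6:7541574-7541603, plus strand: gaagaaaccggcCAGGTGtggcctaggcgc
JUP, chr17:41786002-41786031, minus strand: ccacctgccgagCAGGTGagcgcacggagt
TJP1, chr15:29969120-29969149, minus strand: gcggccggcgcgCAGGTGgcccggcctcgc

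The first 5 of these genes are the ones that TGF-β1 lowered against control, as given below. The printed sites of CDH4, CLDN7, TJP3, CRB3, JUP and PCDH1 lie before a transcript start inside the gene, not at the gene start. CLDN7, JUP and TJP3 also had a window at the gene start, and it did not hold the letters. Of the members with a window, 5 of 10 that TGF-β1 lowered held the letters, as did 2 of 5 that it raised and 5 of 14 without a call. The letters were thus found in members of every response. Over the full windows of 300 bases the E-box stood in 13 of 29 members (44.8%), against 24.1% of all genes. Any E-box (CANNTG) stood in 65.5% of members and 73.1% of genes, and the letters of a SMAD box (GTCTG) in 44.8% and 50.0%. The glucocorticoid receptor letters AGAACA stood in 10.3% of members and 17.5% of genes, and the AP-1 letters TGANTCA in 10.3% and 9.37%. No member window held the grainyhead letters AACCGGTT, which 0.165% of genes hold. CANNTG includes CAGGTG, and all letters were searched on both strands.

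Levels are CPM, that is counts relative to the library size after scaling by edgeR's TMM method. Total counts per library ran from 5861591 to 19727235, and replicate 3 of each group was the deepest with at least 17968961. Libraries of the same replicate number deviated together, so the adjusted p of a member with the number as a block is given wherever it changes a call. All 14 bronchial and basal cell markers had a mean of at least 1 CPM in every group. Their sum per library was 2967 to 3673 CPM in control and 3442 to 5269 with TGF-β1. It was 3845 to 5379 CPM with dexamethasone and 5263 to 7817 with both agents. With TGF-β1 alone, KRT8, KRT15, KRT18, KRT19, NGFR and CDH1 lay below all control libraries. KRT14, KRT17 and LAMB3 lay above them, and the other markers of this list overlapped control. Markers of alveolar type 2 cells and the A549 line summed to between 1.79 and 39.7 CPM per library, and NKX2-1 and SFTPB stayed below 0.5 CPM. That sum was carried by ALDH3A1, at 9.53 to 35.9 CPM in control and 0.672 to 4.17 CPM with TGF-β1. AKR1B10 added 1.11 to 1.97 CPM in control and 6.94 to 8.93 CPM with dexamethasone. With both agents AKR1C2 stood at 1.456 to 5.385 CPM and ALDH3A1 at 0.5464 to 4.169 CPM. The summed level of 8 fibroblast markers was 475 to 633 CPM in control and 916 to 1005 CPM with TGF-β1, carried by THY1, FBLN1 and PDGFRB, while LUM and DCN were at or near 0. The part of these marker genes in the results below was not tested. In bulk RNA, fewer cells of a kind and less RNA per cell cannot be told apart.

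In untreated cells a claudin gene and a pair of desmosomal plaque genes led the members. Per kilobase of exon, CLDN11, a claudin best known from myelin and testis, stood at 47.3 ± 3.94 CPM (SD, n = 3), DSP, the desmoplakin gene, at 44.8 ± 1.33, and JUP, the plakoglobin gene, at 42.3 ± 7.38. These levels lay within their spread of each other. TJP1, which encodes ZO-1, followed at 30.6 ± 1.20 CPM per kilobase and GJA1, which encodes connexin 43, at 27.6 ± 5.11, again within their spread. At the low end stood CLDN4 at 0.477 ± 0.00728, CGNL1 at 0.3449 ± 0.07675, PCDH9 at 0.0812 ± 0.0136 and CDH11 at 0.0494 ± 0.0238 CPM per kilobase. Exons of F11R overlap another annotated gene over 38.3% of their length and those of CLDN11 over 27.2%, so both levels may hold reads of a neighbour. OCLN has a near-identical pseudogene and CTNND1 shares exons with a readthrough transcript, which makes their levels uncertain.

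**Figure D1:**
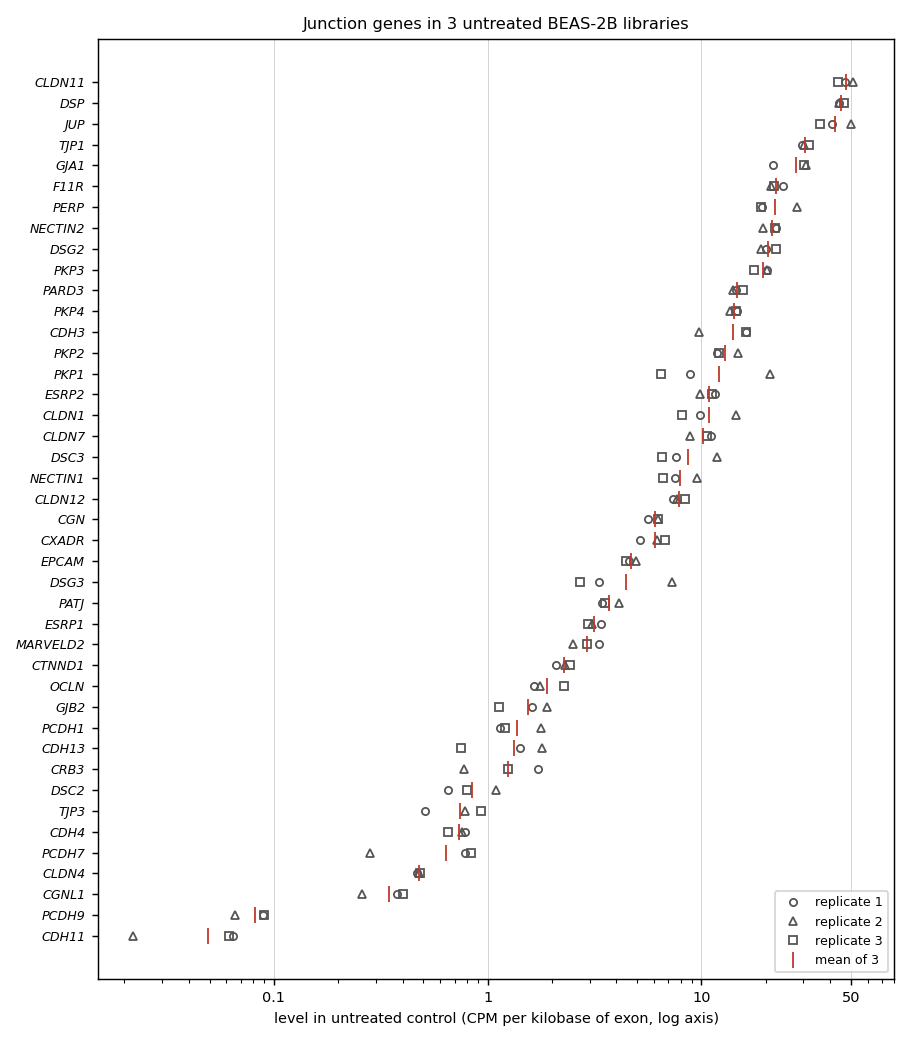
Level of the 42 genes in untreated cells, in CPM per kilobase of exon on a log axis, with 1 symbol for each of 3 libraries and a red bar at the mean. The levels run from 0.0494 for CDH11 to 47.3 for CLDN11, and the widest spread between libraries among the abundant genes is that of PKP1.

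TGF-β1 lowered many tight junction and polarity genes and raised a small set of cadherins and both connexins. Against control, 6 of the 42 members rose, where 16.2% of all genes did, and 14 fell, where 16.6% of all genes did (edgeR's quasi-likelihood test, Benjamini-Hochberg adjusted p under 0.05). Of the 20 called members, 4 rose and 8 fell by at least 2-fold, and the share of all genes at this fold was not counted. CDH11 is among the 4 and TJP3 among the 8, and each passed the low-count filter through groups where it is high. The median log2 change of the members was -0.12, against -0.01 over all genes tested. With the replicate number as a block 11 rose, against 24.6% of genes, and 18 fell, against 25.5%. Scaling to raw library totals moved the median of all genes to -0.22 and gave 5 higher and 19 lower members. Of the 13469 genes, 1251 were then higher and 4325 lower, so changes are relative to the TMM scale. The count of lower members was 7 without replicate 1 of every group and 9 without replicate 3 of every group. For refits that leave out libraries, here and below, the share of all genes called was not counted. Such counts describe only how the calls depend on the libraries.

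In cells given dexamethasone, TGF-β1 raised 4 members, where 15.9% of all genes rose, and lowered 13, where 16.4% fell. Of these, CDH11, DSG2, PCDH1 and PCDH9 were higher and CDH4, CGN, CLDN11, CLDN7, CXADR, ESRP2, MARVELD2, OCLN, PARD3, PATJ, PKP2 and TJP3 were lower in both backgrounds. No sample is shared by these comparisons, but both come from 1 fit of all 12 libraries, and the replicate numbers pair the groups. CLDN1, PKP4, GJA1 and GJB2 were called in the absence of dexamethasone alone, and CRB3 in its presence alone, but the interaction of the treatments was called for none of these 5. With the block 11 members were higher, against 24.0% of genes, and 19 lower, against 26.0%. Among those that the block added, JUP changed by 0.16 on the log2 scale (adjusted p = 0.3172, blocked 0.04036) and GJB2 by 1.15 (0.08984, blocked 0.00148). On the lower side were DSG3 at -0.37 (0.5396, blocked 0.02065), DSP at -0.21 (0.09867, blocked 0.003745), TJP1 at -0.18 (0.1363, blocked 0.01589) and EPCAM at -0.56 (0.05107, blocked 0.01608). The others that the block added are described below. Scaling to raw totals gave 22 lower members, beside 4459 of 13469 genes. Leaving out replicate 1 or replicate 3 of every group gave 7 and 8 lower members. Without replicate 2 of every group, 8 members were higher. The shares of all genes in these omissions were not counted.

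**Figure D2:**
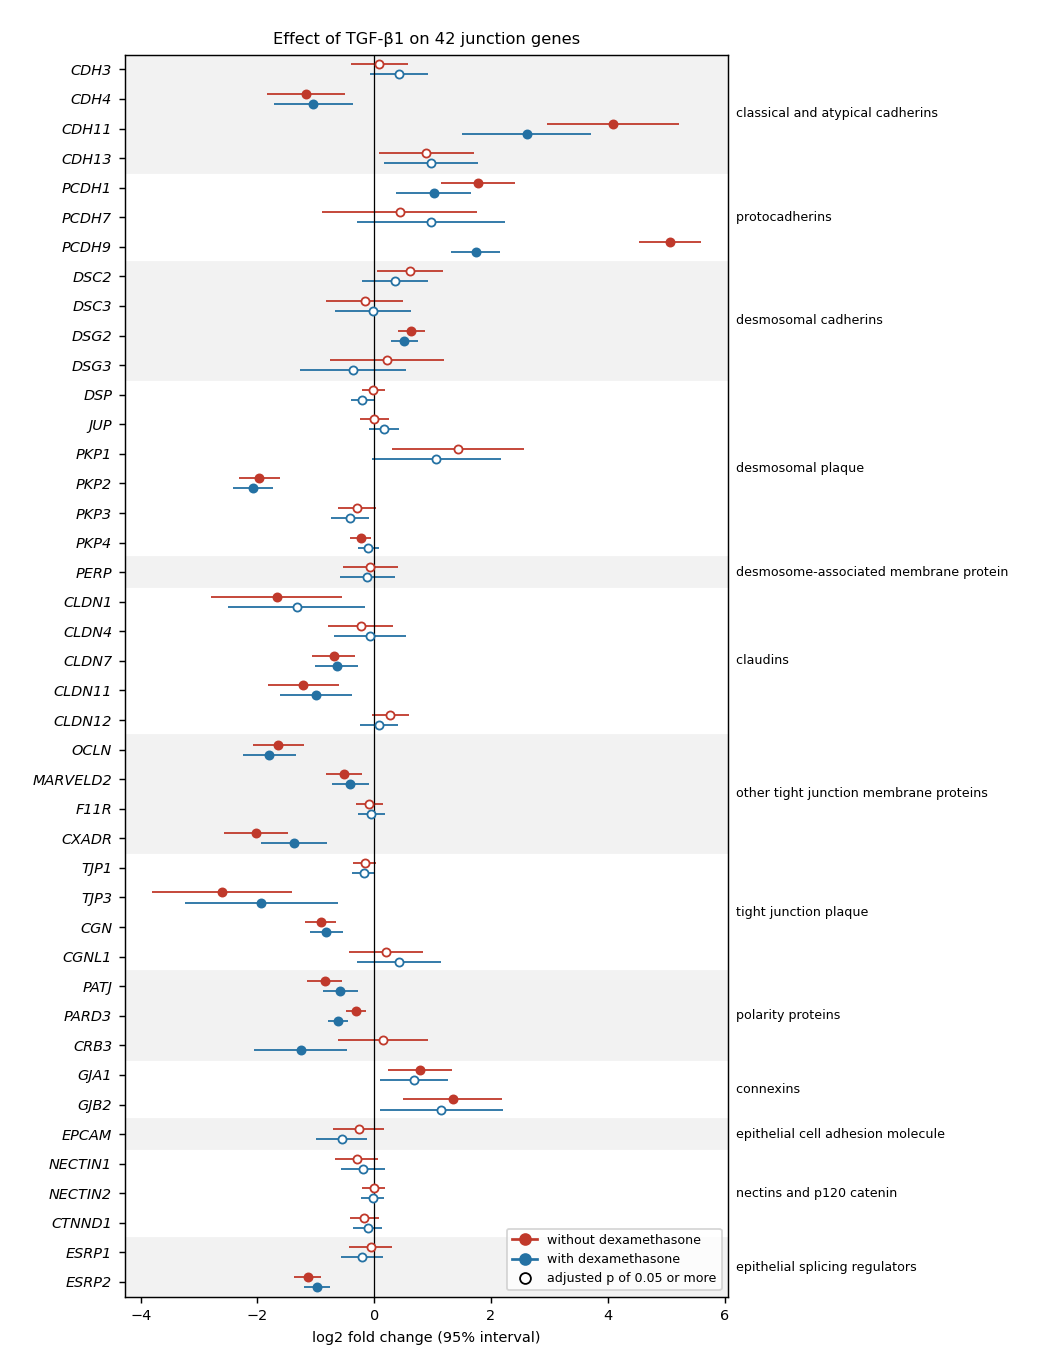
Log2 fold change with TGF-β1 for each of the 42 genes, ordered by role, without dexamethasone (red) and with it (blue), with 95% intervals. Filled points have an adjusted p under 0.05. Most filled points of the tight junction and polarity genes lie left of 0, and PCDH9 and CDH11 lie farthest right.

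Among the cadherins the sharpest rise was in PCDH9, a protocadherin best known from the nervous system. It stood at 2.72, 2.01 and 2.75 CPM in the control libraries and at 99.2, 102.0 and 60.3 CPM with TGF-β1. With dexamethasone it stood at 10.9, 16.3 and 13.8 CPM, and with both agents at 41.1, 48.1 and 47.2 CPM. The 4 groups did not overlap, with control lowest and TGF-β1 highest. The rise with TGF-β1 was 33.5-fold (log2 5.06, SE 0.24, adjusted p = 1.124e-08). In cells given dexamethasone TGF-β1 raised it 3.33-fold (log2 1.73, SE 0.20, adjusted p = 1.869e-05). Each of these calls held without any single library.

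CDH11, a cadherin of mesenchymal cells, lay between 0.155 and 0.454 CPM in control and between 5.42 and 8.02 CPM with TGF-β1. With dexamethasone it was at most 0.908 CPM, with 0 counts in replicate 2, which allows up to 0.445 CPM, and with both agents it lay between 1.78 and 4.55 CPM. Both groups given TGF-β1 were above both groups without it. Its log2 change was 4.09 (SE 0.53, adjusted p = 4.427e-05) without and 2.61 (SE 0.51, adjusted p = 0.001459) with dexamethasone. It passed the low-count filter (10 counts in a library of median depth, 1.53 CPM) through the groups given TGF-β1 alone, so its place among the higher members is a description, and the few counts in control make its fold imprecise.

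PCDH1, a protocadherin of airway epithelium linked to bronchial hyperresponsiveness, stood at 6.20, 9.60 and 6.51 CPM in control and at 30.6, 14.5 and 29.3 CPM with TGF-β1. With dexamethasone it stood at 8.41, 6.83 and 9.22 CPM and with both agents at 23.0, 12.5 and 15.4 CPM. Replicate 2 was the lowest of both groups given TGF-β1, and these groups still lay above the others. The log2 change was 1.78 (SE 0.29, adjusted p = 0.0004922) without and 1.02 (SE 0.29, adjusted p = 0.0185) with dexamethasone. The latter call was lost without replicate 1 of both agents or replicate 2 of dexamethasone, up to adjusted p = 0.07928.

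CDH4, the R-cadherin gene, moved the other way. It stood at 5.75, 5.58 and 4.82 CPM in control and at 2.80, 3.09 and 1.68 CPM with TGF-β1. It stood at 4.72, 6.53 and 3.97 CPM with dexamethasone and at 3.72, 2.08 and 1.76 CPM with both agents. No library given TGF-β1 reached any library without it. Its log2 change was -1.17 (SE 0.31, adjusted p = 0.01041) without and -1.05 (SE 0.32, adjusted p = 0.02119) with dexamethasone. The first call was lost without replicate 3 of TGF-β1 (adjusted p = 0.08126), and the second without replicate 2 or 3 of both agents or replicate 2 of dexamethasone (up to 0.1347).

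CDH13, the cadherin that is anchored to the membrane by a lipid, stood at 13.8, 17.4 and 7.23 CPM in control and at 26.6, 20.4 and 20.9 CPM with TGF-β1. The dexamethasone libraries had 11.5, 20.8 and 7.74 CPM and those with both agents 28.6, 26.6 and 20.5 CPM. The TGF-β1 libraries lay above control, but those with both agents overlapped those with dexamethasone. The log2 change with TGF-β1 was 0.89 (SE 0.37, adjusted p = 0.08963, and 0.01983 with the block). In cells given dexamethasone it was 0.97 (SE 0.37, adjusted p = 0.06496, and 0.01544 with the block). Both agents against control gave 1.04 (SE 0.37, adjusted p = 0.04641), a call lost on leaving out any 1 of 9 of the 12 libraries: all 3 of TGF-β1, all 3 of both agents, replicates 1 and 3 of control and replicate 1 of dexamethasone. CDH3, the P-cadherin gene of basal cells, had a log2 change with TGF-β1 of 0.09 (95% interval -0.40 to 0.58). Its neighbour on chromosome 16, CDH1, which encodes E-cadherin and is not a member, stood at 99.7 ± 17.5 CPM in control and 63.5 ± 4.40 CPM with TGF-β1 and fell by 0.65 on the log2 scale (SE 0.11, adjusted p = 0.0003483).

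In the desmosome TGF-β1 moved single parts in opposite directions. PKP2, a plakophilin that binds desmoplakin, stood at 52.2, 65.5 and 53.9 CPM in control and at 12.6, 17.6 and 13.8 CPM with TGF-β1. Under dexamethasone the values were 91.5, 97.1 and 96.2 CPM, and under both agents 19.3, 29.9 and 19.4 CPM. The 4 groups did not overlap. The fall with TGF-β1 was 3.91-fold (log2 -1.97, SE 0.17, adjusted p = 8.311e-07) without and 4.22-fold (log2 -2.08, SE 0.16, adjusted p = 4.208e-07) with dexamethasone. Neither call was lost on leaving out a single library.

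DSG2, the desmoglein of simple and basal epithelia, rose. It stood at 124.5, 117.7 and 137.8 CPM in control and at 192.0, 174.1 and 222.4 CPM with TGF-β1. Dexamethasone alone gave 133.4, 143.6 and 150.9 CPM and both agents gave 188.7, 190.2 and 231.3 CPM. All 6 libraries given TGF-β1 were above all 6 without it. With TGF-β1 the log2 change was 0.63 (SE 0.11, adjusted p = 0.0004396) without and 0.51 (SE 0.11, adjusted p = 0.002173) with dexamethasone, and no single library decided either call.

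The other desmosomal cadherins were not called. They lie in a cluster on chromosome 18 with DSG2, which spans 31498177 to 31549008 there. DSC2, DSC3 and DSG3 had log2 changes with TGF-β1 of 0.62 (95% interval 0.05 to 1.18), -0.16 (-0.82 to 0.49) and 0.22 (-0.76 to 1.19). With the block, DSC2 rose (adjusted p = 0.008462) and DSC3 fell (adjusted p = 0.04509).

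PKP1, the plakophilin of stratified epithelia, varied widely between replicate numbers. It stood at 48.4, 114.3 and 35.1 CPM in control, 157.4, 247.5 and 123.1 with TGF-β1, 85.7, 160.0 and 71.3 with dexamethasone, and 208.3, 288.5 and 161.2 with both agents. Replicate 2 was the highest library of every group, and within each number the order of the groups was the same. TGF-β1 gave a log2 change of 1.44 (SE 0.50, adjusted p = 0.05462, and 0.0001573 with the block). Both agents against control gave 1.76 (SE 0.50, adjusted p = 0.02238), a call lost without replicate 1 or 3 of control or replicate 1 or 2 of both agents (up to 0.08308). The same comparison against dexamethasone gave 1.06 (SE 0.49, adjusted p = 0.135, and 0.000716 with the block).

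PKP3, which binds many desmosomal cadherins, stood at 56.8, 56.9 and 49.4 CPM in control, 45.3, 51.7 and 36.4 with TGF-β1, 55.8, 57.0 and 44.2 with dexamethasone, and 37.5, 46.7 and 34.1 with both agents. Control and TGF-β1 overlapped, while the libraries with both agents were below control. The log2 change was -0.30 with TGF-β1 (SE 0.15, adjusted p = 0.146, and 0.001281 with the block). Both agents against control gave -0.47 (SE 0.15, adjusted p = 0.02429). That call was lost without replicate 1 or 2 of control or replicate 1 or 3 of both agents (up to 0.1107). Against dexamethasone, both agents gave -0.41 (SE 0.15, adjusted p = 0.05009, and 0.0001521 with the block).

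PKP4, a plakophilin found in adherens junctions too, stood at 86.7, 80.9 and 86.3 CPM in control, 71.4, 70.7 and 74.1 with TGF-β1, 77.2, 73.0 and 76.6 with dexamethasone, and 74.7, 61.1 and 74.9 with both agents. Control was above all other groups. On the log2 scale TGF-β1 gave -0.23 (SE 0.08, adjusted p = 0.04862), and the call was lost on leaving out any 1 of 10 of the 12 libraries, all but replicates 2 and 3 of both agents (up to 0.1256). Both agents against control gave -0.27 (SE 0.08, adjusted p = 0.02377), lost without replicate 1 or 3 of control or replicate 2 of both agents (up to 0.1054). JUP had a log2 change with TGF-β1 of 0.00 (95% interval -0.25 to 0.26), DSP of -0.02 (-0.21 to 0.18), and PERP, a membrane protein of desmosomes, of -0.07 (-0.54 to 0.41).

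Of the 5 claudins, 3 fell with TGF-β1. CLDN11 stood at 102.1, 111.4 and 94.3 CPM in control and at 44.4, 57.1 and 32.9 CPM with TGF-β1. With dexamethasone it stood at 83.5, 79.4 and 61.6 CPM and with both agents at 37.8, 53.5 and 23.1 CPM. Libraries given TGF-β1 were below all others. Its log2 change was -1.21 (SE 0.27, adjusted p = 0.005905) without and -1.003 (SE 0.28, adjusted p = 0.01839) with dexamethasone. The second call was lost without replicate 1 of both agents or replicate 1 or 2 of dexamethasone (up to 0.06545).

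CLDN1, a sealing claudin, stood at 34.2, 50.8 and 28.4 CPM in control and at 10.1, 20.4 and 6.55 CPM with TGF-β1. It stood at 23.3, 35.3 and 15.2 CPM with dexamethasone and at 5.98, 17.2 and 6.92 CPM with both agents. Replicate 2 was the highest library of every group, and the dexamethasone and both-agent groups overlapped. The log2 change with TGF-β1 was -1.67 (SE 0.51, adjusted p = 0.02804), lost without replicate 1 or 3 of TGF-β1 or replicate 1 or 2 of control (up to 0.1084). With dexamethasone present it was -1.33 (SE 0.53, adjusted p = 0.08046, and 7.656e-06 with the block).

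CLDN7, a claudin also found along the lateral membrane, stood at 23.0, 18.3 and 22.0 CPM in control and at 12.4, 10.03 and 15.7 CPM with TGF-β1. The dexamethasone libraries had 20.8, 17.4 and 23.8 CPM and those with both agents 12.6, 12.2 and 14.9 CPM. Libraries given TGF-β1 were below those without it. With TGF-β1 the log2 change was -0.70 (SE 0.17, adjusted p = 0.00619) without and -0.64 (SE 0.17, adjusted p = 0.01078) with dexamethasone, the latter lost without replicate 3 of dexamethasone (0.0665). CLDN4 and CLDN12 were not called, with log2 changes with TGF-β1 of -0.23 (95% interval -0.79 to 0.32) and 0.28 (-0.04 to 0.59). With the block CLDN12 rose (adjusted p = 0.01346).

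Among the other membrane proteins of tight junctions, OCLN, CXADR and MARVELD2 fell in both backgrounds. OCLN, the occludin gene, stood at 10.7, 11.5 and 15.0 CPM in control and at 3.15, 4.32 and 4.37 CPM with TGF-β1. Under dexamethasone the values were 8.71, 9.65 and 11.9 CPM, and under both agents 2.59, 2.61 and 3.34 CPM. Each library given TGF-β1 was below each without it. The fall was 3.12-fold (log2 -1.64, SE 0.20, adjusted p = 2.61e-05) without and 3.47-fold (log2 -1.80, SE 0.21, adjusted p = 2.053e-05) with dexamethasone.

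CXADR, the receptor for coxsackievirus and adenovirus and an adhesion molecule of epithelia, stood at 34.7, 41.4 and 45.4 CPM in control and at 5.95, 12.5 and 10.8 CPM with TGF-β1. Dexamethasone alone gave 16.5, 19.9 and 29.4 CPM and both agents gave 6.79, 7.99 and 10.3 CPM. Control was highest, dexamethasone intermediate, and the groups given TGF-β1 overlapped at the bottom. TGF-β1 gave a log2 change of -2.03 (SE 0.25, adjusted p = 4.735e-05) without and -1.38 (SE 0.26, adjusted p = 0.001364) with dexamethasone.

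MARVELD2, which encodes tricellulin of 3-cell contacts, stood at 16.3, 12.2 and 14.3 CPM in control and at 8.39, 10.8 and 10.4 CPM with TGF-β1. With dexamethasone it stood at 13.3, 12.9 and 14.8 CPM and with both agents at 9.54, 10.4 and 10.9 CPM. The groups given TGF-β1 were below the others. The log2 change was -0.52 (SE 0.14, adjusted p = 0.01243), lost without replicate 1 of TGF-β1 or replicate 1 of control (up to 0.056), and -0.41 (SE 0.14, adjusted p = 0.04408) with dexamethasone. The latter was lost on leaving out any 1 of 8 libraries: all 3 of dexamethasone, all 3 of both agents, replicate 3 of TGF-β1 and replicate 3 of control (up to 0.1789). F11R, the JAM-A gene, had a log2 change of -0.08 (95% interval -0.32 to 0.15).

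In the plaque of the tight junction, CGN, the cingulin gene, stood at 28.8, 32.1 and 31.9 CPM in control and at 14.3, 19.3 and 15.6 CPM with TGF-β1. It stood at 19.3, 23.8 and 22.7 CPM with dexamethasone and at 12.1, 11.8 and 13.1 CPM with both agents. Control was above all other groups, and both agents below all others. On the log2 scale TGF-β1 gave -0.92 (SE 0.12, adjusted p = 6.492e-05) without and -0.82 (SE 0.13, adjusted p = 0.0002535) with dexamethasone. TJP3, which encodes ZO-3, lay between 1.82 and 3.33 CPM in control and between 0.336 and 0.772 CPM with TGF-β1. Its log2 change was -2.61 (SE 0.56, adjusted p = 0.002492) without and -1.94 (SE 0.61, adjusted p = 0.02576) with dexamethasone, where the groups overlapped. The latter call was lost without replicate 1 or 3 of both agents or replicate 3 of dexamethasone (up to 0.3463). TJP3 had 12, 18 and 69 counts in control and at most 6 in any library given TGF-β1. It passed the low-count filter through the control libraries and replicate 3 of dexamethasone alone, that is through groups where it is high, so its place among the lower members is a description. TJP1 and CGNL1, the paracingulin gene, had log2 changes of -0.17 (95% interval -0.36 to 0.03) and 0.21 (-0.43 to 0.84), and TJP1 fell with the block (adjusted p = 0.03014).

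All 3 polarity genes were lower with TGF-β1 in cells given dexamethasone. PATJ, a scaffold of the Crumbs complex, stood at 33.1, 40.0 and 34.4 CPM in control and at 17.7, 20.5 and 20.9 CPM with TGF-β1. The dexamethasone libraries had 26.4, 26.3 and 31.3 CPM and those with both agents 14.7, 20.2 and 21.0 CPM. The groups given TGF-β1 overlapped each other and lay below the other groups. Its log2 change was -0.85 (SE 0.14, adjusted p = 0.0003044) without and -0.58 (SE 0.14, adjusted p = 0.005466) with dexamethasone.

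PARD3, the scaffold of the PAR complex, stood at 93.1, 90.6 and 100.3 CPM in control and at 78.0, 76.2 and 75.7 CPM with TGF-β1. Under dexamethasone the values were 108.0, 102.6 and 111.9 CPM, and under both agents 71.2, 62.7 and 74.7 CPM. Dexamethasone alone was the highest group and both agents the lowest, with no overlap. The log2 change with TGF-β1 was -0.31 (SE 0.08, adjusted p = 0.009197) without and -0.63 (SE 0.08, adjusted p = 4.424e-05) with dexamethasone. The interaction was -0.32 (SE 0.11, adjusted p = 0.3817, and 0.0312 with the block).

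CRB3, the epithelial Crumbs protein, stood at 2.72, 1.24 and 1.98 CPM in control, 1.40, 2.32 and 2.58 with TGF-β1, 3.25, 3.12 and 2.77 with dexamethasone, and 0.9704, 0.521 and 1.76 with both agents. Control and TGF-β1 overlapped, and both agents lay below dexamethasone. TGF-β1 gave a log2 change of 0.15 (95% interval -0.62 to 0.92) without and -1.26 (SE 0.37, adjusted p = 0.01849) with dexamethasone. The call was lost without replicate 1 or 2 of both agents (up to 0.06076), and the interaction of -1.41 was not called (SE 0.52, adjusted p = 0.4052).

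**Figure D3:**
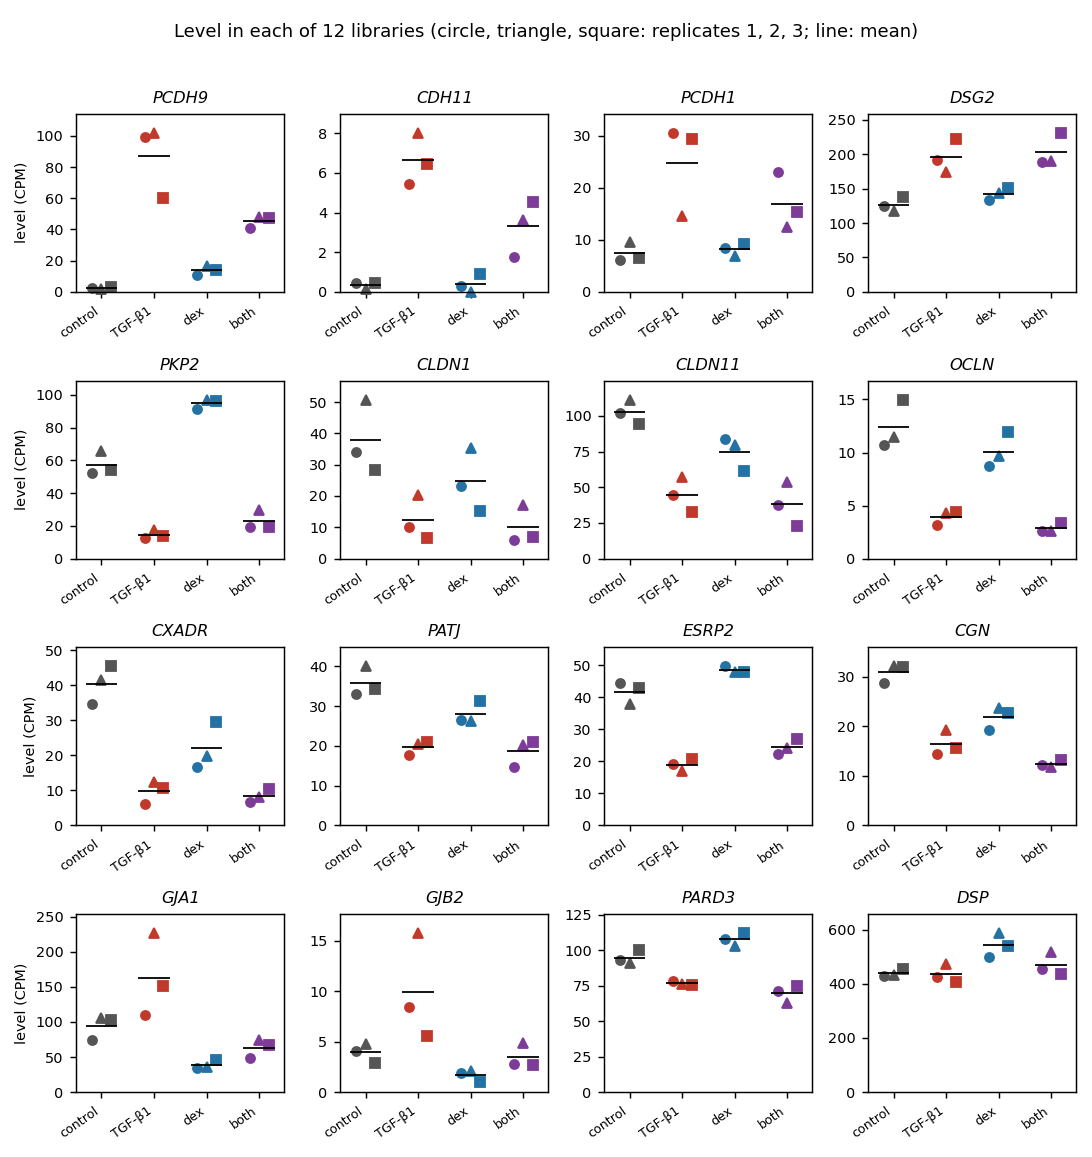
Level in CPM of 16 members in each of the 12 libraries, by group, with 1 symbol per replicate number and a line at the mean. OCLN, CLDN11, PATJ and ESRP2 are low in both groups given TGF-β1, PKP2 differs between all 4 groups, and GJA1 and GJB2 are highest with TGF-β1 alone.

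The connexins answered to the treatments in opposite directions. GJA1 stood at 74.2, 105.3 and 103.3 CPM in control and at 109.8, 226.7 and 151.5 CPM with TGF-β1. Dexamethasone alone gave 34.7, 36.2 and 46.3 CPM and both agents gave 48.4, 74.2 and 67.5 CPM. No groups overlapped except control and both agents, which met at 74.2 CPM. TGF-β1 raised it by 0.78 on the log2 scale (SE 0.25, adjusted p = 0.03397), a call lost without replicate 2 or 3 of TGF-β1 or any control library (up to 0.1118). Dexamethasone lowered it 2.39-fold without TGF-β1 (log2 -1.26, SE 0.26, adjusted p = 0.008756) and 2.56-fold with it (log2 -1.36, SE 0.26, adjusted p = 0.006211). Both falls held without any single library. TGF-β1 in cells given dexamethasone gave 0.68 (SE 0.26, adjusted p = 0.0702, and 0.01938 with the block).

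GJB2, which encodes connexin 26, stood at 4.09, 4.80 and 2.89 CPM in control and at 8.39, 15.7 and 5.54 CPM with TGF-β1. With dexamethasone it stood at 1.92, 2.08 and 0.956 CPM and with both agents at 2.75, 4.86 and 2.67 CPM. TGF-β1 alone was the highest group and dexamethasone alone the lowest, while control and both agents overlapped. The rise with TGF-β1 was 1.35 on the log2 scale (SE 0.39, adjusted p = 0.01786), lost without replicate 2 of TGF-β1 or replicate 3 of control (up to 0.1041). Dexamethasone gave -1.34 without TGF-β1 (SE 0.47, adjusted p = 0.1014, and 0.0005307 with the block). With TGF-β1 it gave -1.54 (SE 0.40, adjusted p = 0.03061), lost without replicate 1 or 2 of TGF-β1, replicate 1 of control, or replicate 1 or 3 of both agents (up to 0.1542).

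The splicing regulators ESRP1 and ESRP2, which set epithelial isoforms of adhesion genes, were unlike each other in their calls. ESRP2 stood at 44.6, 37.8 and 43.1 CPM in control and at 19.1, 16.97 and 20.7 CPM with TGF-β1. It stood at 49.7, 48.1 and 48.1 CPM with dexamethasone and at 22.3, 24.3 and 26.9 CPM with both agents. The 4 groups did not overlap. On the log2 scale TGF-β1 gave -1.14 (SE 0.11, adjusted p = 2.366e-06) without and -0.98 (SE 0.11, adjusted p = 9.032e-06) with dexamethasone, and both held without any single library. ESRP1 had log2 changes of -0.06 (95% interval -0.43 to 0.31) and -0.21 (-0.57 to 0.16). Whether the pair differ was not tested.

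The remaining members were without a call in any of the 6 comparisons. EPCAM, an adhesion molecule of epithelia, had a log2 change with TGF-β1 of -0.27 (95% interval -0.71 to 0.17), NECTIN1 of -0.30 (-0.67 to 0.06), NECTIN2 of -0.01 (-0.21 to 0.19) and CTNND1, the p120 catenin gene, of -0.17 (-0.42 to 0.08). Nectins and this catenin start and steady adherens junctions. NECTIN1 fell with the block (adjusted p = 0.003318). In all, 25 members were called in at least 1 comparison and 17 in none. With the block 2 members, ESRP1 and F11R, were called in none. The share of all genes called in at least 1 comparison was not counted for either fit, so these counts are descriptive.

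Dexamethasone for 4 h moved few members. Against control it raised DSP, PCDH9 and PKP2, 3 of 42, where 5.54% of all genes rose, and lowered CGN, CXADR and GJA1, again 3, where 4.90% of all genes fell. The median log2 change of the members was -0.04 and of all genes 0.00. With the block 8 members rose, against 10.8% of genes, and 10 fell, against 11.4%. The block added DSG2 (blocked adjusted p = 0.03417), PKP1 (0.01464), PERP (0.002726), PARD3 (0.02319) and DSG3 as higher, with log2 changes of 0.17 to 1.32. It added JUP (0.03184), CLDN1 (0.0009808), CGNL1 (0.02786), PATJ (0.0162), NECTIN1 (0.02599), NECTIN2 (0.04653) and GJB2 as lower, with log2 changes of -1.34 to -0.18. In the absence of the block the adjusted p of these 12 members lay between 0.08252 and 0.6709. The lower count was 5 with the compared groups fitted alone, 1 without replicate 3 of control or replicate 1 of dexamethasone, 1 without replicate 1 of every group, and 0 without replicate 3 of every group. The higher count was 1 without replicate 1 or replicate 3 of every group. The shares of all genes called in these refits were not counted.

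PCDH9 rose 5.30-fold with dexamethasone (log2 2.41, SE 0.26, adjusted p = 2.215e-05) and PKP2 1.66-fold (log2 0.73, SE 0.15, adjusted p = 0.003942). DSP stood at 429.3, 433.7 and 453.7 CPM in control and at 498.6, 586.6 and 539.6 CPM with dexamethasone. It stood at 423.4, 474.4 and 405.4 CPM with TGF-β1 and at 455.4, 518.8 and 434.7 CPM with both agents. The dexamethasone libraries were above control, and the groups given TGF-β1 overlapped each other. The rise with dexamethasone was 0.30 on the log2 scale (SE 0.09, adjusted p = 0.04705), lost on leaving out any 1 of 7 of the 12 libraries: all 3 of control, replicates 2 and 3 of dexamethasone, replicate 1 of TGF-β1 and replicate 1 of both agents (up to 0.2163).

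CXADR fell by 0.85 with dexamethasone on the log2 scale (SE 0.23, adjusted p = 0.03161), lost without replicate 2 or 3 of control or replicate 1 or 2 of dexamethasone (up to 0.1143). CGN fell by 0.49 (SE 0.12, adjusted p = 0.01583), lost without replicate 3 of control or replicate 1 of dexamethasone (up to 0.06776). DSG3, the desmoglein of basal keratinocytes, showed a larger change than either that did not pass the test. It stood at 18.3, 40.1 and 14.9 CPM in control and at 50.0, 81.5 and 47.0 CPM with dexamethasone, with 1.32 on the log2 scale (SE 0.42, adjusted p = 0.08252). With the block the adjusted p was 5.711e-07.

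In cells given TGF-β1, dexamethasone raised 1 member, PKP2, where 5.09% of all genes rose, and lowered GJA1, GJB2 and PCDH9, 3 members, where 3.01% fell. PKP2 changed by 0.62 on the log2 scale (SE 0.17, adjusted p = 0.03881), lost on leaving out any 1 of 7 libraries: replicates 1 and 3 of TGF-β1, replicate 1 of control, replicate 2 of both agents and all 3 of dexamethasone (up to 0.1646). With the block 5 members rose, against 9.47% of genes, and 7 fell, against 8.00%. Among these, DSG3 rose (log2 0.74, SE 0.42, adjusted p = 0.4502, and 0.000282 with the block) and ESRP2 rose (log2 0.37, SE 0.11, adjusted p = 0.05452, and 0.00782 with the block). PERP changed by 0.19 (adjusted p = 0.8032, blocked 0.03026). Lower with the block were CDH11 by -0.92 (adjusted p = 0.222, blocked 0.03456), CLDN12 by -0.38 (0.1843, blocked 0.00693), CGN by -0.39 (0.1012, blocked 0.02464) and NECTIN2 by -0.20 (0.2941, blocked 0.04615). The count of lower members was 1 without replicate 1 of every group. Comparisons with dexamethasone share samples with those of TGF-β1 and are set side by side only.

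**Figure D4:**
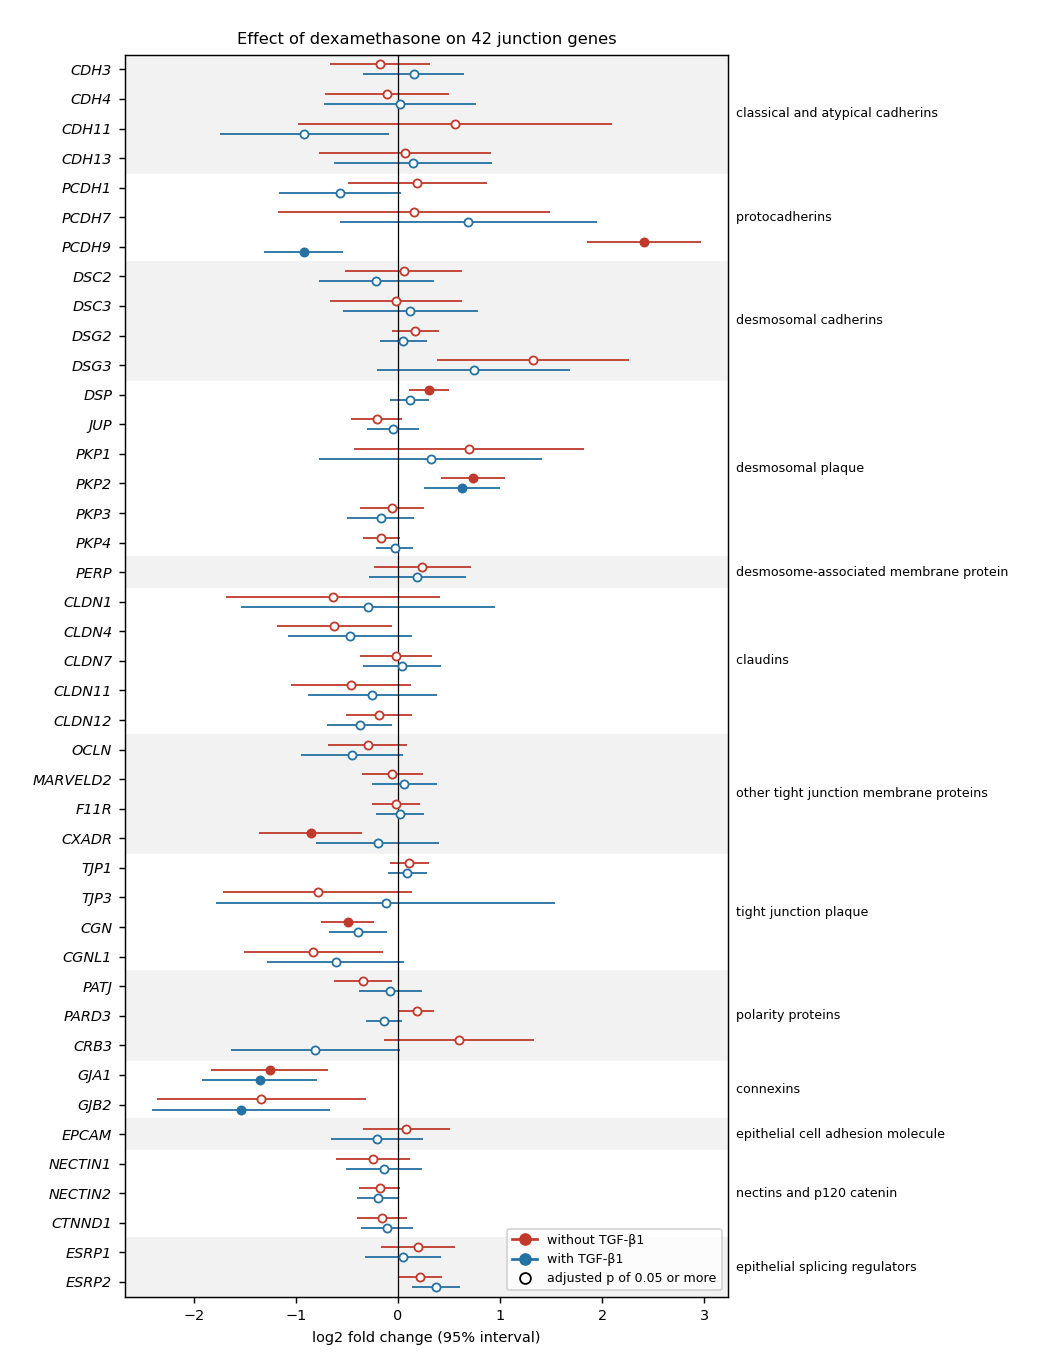
Log2 fold change with dexamethasone for each of the 42 genes, ordered by role, without TGF-β1 (red) and with it (blue), with 95% intervals. Filled points have an adjusted p under 0.05. PCDH9 lies right of 0 without TGF-β1 and left of 0 with it, and both connexins lie left of 0 in both backgrounds.

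The interaction asks whether the effect of dexamethasone changes when TGF-β1 is present, and its value is the effect in the presence of TGF-β1 less the effect in its absence. It was called for PCDH9 alone among the 42 members, where 0.401% of all genes were called lower and 0.483% higher. Dexamethasone changed PCDH9 by 2.41 on the log2 scale without TGF-β1 and by -0.92 (SE 0.18, adjusted p = 0.004504) with it. The difference was -3.33 (SE 0.32, adjusted p = 0.0003724). It held without any single library, and was not called without replicate 1 of every group. With the block 2 members, PCDH9 and PARD3, were called lower, against 1.77% of genes, and none higher, against 3.01%.

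Both agents together against control left 6 members higher, where 18.5% of all genes were, and 15 lower, where 18.1% were. The higher members were CDH11, CDH13, DSG2, PCDH1, PCDH9 and PKP1. The lower members included OCLN, 4.27-fold (log2 -2.09, SE 0.21, adjusted p = 3.437e-06), CXADR, 4.70-fold (log2 -2.23, SE 0.26, adjusted p = 2.125e-05), and CGN, 2.49-fold (log2 -1.31, SE 0.13, adjusted p = 2.623e-06). CLDN1 fell by 1.97 on the log2 scale (SE 0.52, adjusted p = 0.01327), lost without replicate 1 or 3 of both agents (up to 0.06463). CDH4 fell by 1.15 (SE 0.31, adjusted p = 0.01043), lost without replicate 3 of both agents (0.0762), and MARVELD2 by 0.46 (SE 0.14, adjusted p = 0.02179), lost without replicate 1 or 3 of control or replicate 1 of both agents (up to 0.09662). GJA1 and GJB2 had log2 changes of -0.57 (95% interval -1.14 to -0.01) and -0.19 (-1.12 to 0.74), and neither was called. With the block GJA1 was called lower (adjusted p = 0.1049, blocked 0.02209). In all, 9 members were then higher, against 26.5% of genes, and 20 lower, against 26.7%. DSG3 was among the higher at 0.96 (0.1081, blocked 6.37e-06). Among the lower were CLDN4 at -0.70 (0.0596, blocked 0.04759), NECTIN1 at -0.44 (0.05768, blocked 0.0001217), NECTIN2 at -0.21 (0.09523, blocked 0.01037) and CTNND1 at -0.27 (0.0843, blocked 0.03569). CLDN4 passed the low-count filter through libraries without dexamethasone alone, where it is high, so its place among the lower members is a description. Scaling to raw totals moved the median of all genes to -0.27 and gave 24 lower members, beside 5333 of 13469 genes. Without replicate 1 of every group 3 were higher and 9 lower, and without replicate 3 of every group 3 were higher, with the shares of all genes not counted.

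The level of several members followed the replicate number. Replicate 2 was the highest library in 4 of 4 groups for 9 members (DSC3, DSG3, PKP1, PKP2, PKP3, PERP, CLDN1, GJB2 and NECTIN1) and the lowest in 4 of 4 for 6 (CDH3, PCDH7, PKP4, CLDN7, F11R and CGNL1). The same was not counted over all genes, so these counts are not a trait of the members. PCDH7, a protocadherin, stood at 5.60, 2.01 and 5.98 CPM in control and at 14.7, 3.30 and 12.5 CPM with both agents. Replicate 2 was far below the others in each, and both agents against control gave 1.13 on the log2 scale (SE 0.58, adjusted p = 0.1581, and 4.279e-06 with the block). Its other blocked adjusted p values were 0.03389 for TGF-β1 against control (log2 0.44, 0.6241 in the absence of the block), 0.002992 for both agents against TGF-β1 (0.69, 0.6752) and 2.876e-05 for both agents against dexamethasone (0.97, 0.2294). CDH3 stood at 81.6, 49.3 and 81.1 CPM in control and 90.2, 70.4 and 90.5 CPM with both agents, again with replicate 2 lowest. In cells given dexamethasone TGF-β1 changed CDH3 by 0.42 (SE 0.23, adjusted p = 0.1856, and 4.786e-05 with the block), and both agents against control gave 0.24 (adjusted p = 0.4387, blocked 0.006256). What the replicate number stands for is not given in the labels.

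The other genes of these pathways were read from 8 lists of 103 genes, of which 81 were tested. These lists too were chosen with earlier results known. With TGF-β1, 18 rose, where 16.2% of all genes did, and 25 fell, where 16.6% did. Among other polarity genes, of the PAR, Scribble and Crumbs complexes, 5 of 13 tested genes fell and 3 rose. PARD6A fell by 3.21 on the log2 scale (SE 0.29, adjusted p = 1.428e-06), PARD3B by 2.36 (SE 0.28, adjusted p = 1.75e-05) and PARD6B by 2.26 (SE 0.28, adjusted p = 4.735e-05). Among 16 other tight junction genes 5 fell and 1 rose: AMOT, an angiomotin, fell by 2.13 (SE 0.25, adjusted p = 1.724e-05) and LSR, a protein of 3-cell contacts, by 0.88 (SE 0.11, adjusted p = 2.747e-05). PPL, the periplakin gene, stood at 427.7 ± 75.4 CPM in control and 74.7 ± 15.9 CPM with TGF-β1 and fell by 2.53 (SE 0.22, adjusted p = 3.938e-06).

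Of 9 hemidesmosome genes, which anchor cells to the basement membrane, 3 rose and 1 fell with TGF-β1. Of 11 partners in adherens junctions 3 rose and 4 fell, with a median log2 change of -0.01, and CDH2, which encodes N-cadherin, was among the higher at 1.01 (SE 0.09, adjusted p = 8.311e-07). Of 7 other gap junction genes 3 rose and 0 fell with TGF-β1. With the block 2 of the hemidesmosome genes and 1 of these gap junction genes fell, and 2 of the other tight junction genes rose.

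Of 8 tested repressors of epithelial genes, 5 rose and 1 fell with TGF-β1. SNAI1, the Snail gene, stood at 4.09, 2.32 and 3.42 CPM in control and at 108.8, 85.3 and 101.0 CPM with TGF-β1, a log2 change of 4.88 (SE 0.18, adjusted p = 6.957e-10). With both agents it stood at 47.7, 35.1 and 48.8 CPM, between these groups and without overlap, and dexamethasone in cells given TGF-β1 changed it by -1.16 (SE 0.14, adjusted p = 7.069e-05). SNAI2, the Slug gene, rose by 1.97 (SE 0.26, adjusted p = 0.0001296) and TWIST1 fell by 0.85 (SE 0.13, adjusted p = 0.0001911). Of 13 activators of epithelial genes, 7 fell and 0 rose with TGF-β1 (9 and 1 with the block). ELF3 fell by 3.14 (SE 0.20, adjusted p = 5.619e-08), FOXA1 by 3.06 (SE 0.23, adjusted p = 3.373e-07) and GRHL1 by 1.26 (SE 0.32, adjusted p = 0.007033).

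With dexamethasone, 8 of the 81 genes rose, where 5.54% of all genes did, and 15 fell, where 4.90% did. With the block 16 rose, against 10.8% of genes, and 19 fell, against 11.4%. VCL, the vinculin gene of adherens junctions, stood at 408.7 ± 23.7 CPM in control and 1115 ± 50.6 CPM with dexamethasone, a log2 change of 1.45 (SE 0.09, adjusted p = 1.41e-07). ITGB4, the integrin of hemidesmosomes, rose by 0.91 (SE 0.10, adjusted p = 1.488e-05). ELF3 fell by 2.02 (SE 0.18, adjusted p = 2.339e-06) and FOXA1 by 1.40 (SE 0.20, adjusted p = 0.0002715). The interaction was called for VCL (-0.67, SE 0.13, adjusted p = 0.02759), SNAI1 (-1.27, SE 0.27, adjusted p = 0.03921) and KLF4 (1.40, SE 0.20, adjusted p = 0.003435), 3 of the 81. That is 1 higher, where 0.483% of all genes were, and 2 lower, where 0.401% were. With the block it was called higher for 9 genes, against 3.01% of all genes, and lower for 4, against 1.77%.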

How the data were processed

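Gene counts of 12 libraries were used as the authors deposited them: raw counts per gene from featureCounts on hg38, per the submitters' processing notes. For the aligner, annotation and strand setting nothing is given in the sources used here, so reads of antisense partners cannot be told apart. The table held 6 more count columns without a label, which were not used. Identifiers were joined to RefSeq symbols (27745 of 28395 matched). Exon lengths came from GENCODE. Genes were filtered with edgeR's filterByExpr (minimum count 10), scaled by TMM and fitted with 1 mean per group in edgeR 4.0.16 (limma 3.58.1, R 4.3.3; robust quasi-likelihood test, Benjamini-Hochberg adjustment, threshold 0.05). Standard errors and 95% intervals derive from the fold change and its F statistic. The procedure was tested on simulated data. DESeq2 1.42.0, other scalings and filters, single-library omission and the replicate number as a block were alternatives. Deviations of same-numbered libraries correlated in 18 of 18 pairs (r of 0.25 to 0.54, others -0.42 to 0.04), so the numbers pair the libraries, and adding the block took the biological coefficient of variation from 0.122 to 0.0577. P-values measure the spread between these libraries, which may be technical in part. Counting floors (3 counts) cover counting error only. Values per library are given for members called in at least 1 comparison and averaging 1 or more in log2 CPM, and for up to 3 called genes per direction of each pathway list where described; CDH3, PCDH7 and DSG3 were added after their values were seen. The members and lists were chosen with earlier results of these data known. A planned comparison of protein sequences was not made. Python 3.11.15 with pandas 2.3.3 wrote the tables and matplotlib 3.10.9 drew the figures. Single values of some genes in the pathway lists are not reported here.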

Additional observations from a re-analysis of the deposited data

Results flagged for a closer look

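PCDH9 stood out because the dexamethasone effect differed with and without TGF-β1. The difference of the effects was -3.33 on the log2 scale by the interaction term of edgeR's quasi-likelihood test, with a rise in all 3 numbered pairs without TGF-β1 and a fall in all 3 with it.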

How the results depend on the processing

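Of 69 member calls over the 6 comparisons, 44 held without any single library and 25 were lost without at least 1. DESeq2 lost 3, RLE scaling 4, scaling to raw totals 4, no low-count filter 10, and the replicate block 0. A minimum count of 50 lost 1 of 57 and left 12 untested, and compared groups alone lost 6 of 67 and gave no value for 2. Without replicate 1, 2 or 3 of every group 32, 8 and 25 of the 69 were lost. No result changed direction past the threshold. With the replicate block the counts of members were 11 higher for TGF-β1, 8 higher and 10 lower for dexamethasone, 5 higher and 7 lower for both agents against TGF-β1, 11 higher for both agents against dexamethasone, and 2 lower for the interaction. With compared groups alone dexamethasone gave 5 lower, and both agents against TGF-β1 gave 0 higher. Scaling to raw totals gave 0 higher there, beside 597 of 13469 genes. It gave 22 lower for both agents against dexamethasone and 24 lower against control, beside 4459 and 5333 genes. A minimum count of 50 gave 2 higher for both agents against TGF-β1. The shares of all genes called were not counted for this minimum, for compared groups alone or for the omissions below.

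Leaving out libraries, or a replicate number in every group, gave 7 to 14 lower members for TGF-β1, 1 to 4 higher and 0 to 4 lower for dexamethasone, 0 to 3 higher and 1 to 4 lower for both agents against TGF-β1, 3 to 8 higher and 7 to 15 lower against dexamethasone, 3 to 8 higher and 9 to 17 lower against control, and 0 to 1 lower for the interaction. E-box letters stood in 13 of 29 members over 300 bases and 12 over 250. Replicates 1 and 2 hold at most 7008203 counts each, which limits the precision of CDH11, TJP3 and CRB3.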
